A study of Arabidopsis thaliana with 4 samples.

Results

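The genes described here are those with a symbol of TRM and a number that a probe of the array lists alone. There are 7 of them among the 5415 loci measured singly: TRM21, TRM22, TRM23, TRM26, TRM30, TRM34 and TRM82. The symbol covers genes of unlike function. It is carried by 33 genes of the RefSeq table, of which 29 are listed as TON1 Recruiting Motif and 4 are not. Of the 7 genes, 6 belong to the TON1 Recruiting Motif family, whereas TRM82 (AT1G03110) is listed as a tRNA modification gene. TRM82 is therefore given apart, and the family below means the other 6 genes.

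TON1 Recruiting Motif proteins bind cortical microtubules and bring to them TON1 and a protein phosphatase 2A complex with the regulatory subunit FASS. This complex arranges the cortical microtubule array and is needed for the preprophase band, the ring of microtubules that foretells the plane of division in a plant cell. Members of the family, such as the LONGIFOLIA genes of Arabidopsis and their relatives in rice and tomato, are known for their effect on the length and shape of leaves, grains and fruits. TRM82 takes its name from the yeast protein that works as the non-catalytic partner of the transfer RNA 7-methylguanosine methyltransferase.

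RNA of agamous inflorescences and of wild-type inflorescences of Arabidopsis thaliana was hybridised together on each of 4 2-colour oligonucleotide arrays, so that every array gives 1 ratio per probe. The agamous mutant lacks a MADS-domain factor, and its flowers form petals and sepals in place of stamens and carpels. The labels give no allele, accession background, age or floral stage. Nor do they tell if separate plants gave each set, and the p-values then cover array-to-array spread only, which may be technical. In bulk inflorescences, fewer cells of a type and less RNA per cell cannot be told apart. Per the labels, channel 1 held agamous RNA for arrays 1 and 3, and channel 2 held it for arrays 2 and 4. The values are log2 ratios of the channels, and the sources used here do not give the numerator.

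The direction of the ratios is not settled. Arrays 1 and 3, labelled with the same channel order, had a Pearson's r of -0.69 across probes when values at the bounds of the table were left out, and -0.08 with all values. Arrays 1 and 4 had 0.71 and 0.60, and arrays 2 and 3 had 0.83 and 0.49. Each result is therefore given in 3 readings, namely as deposited, with arrays 2 and 3 sign-turned, and turned by the labels (arrays 2 and 4). The turned reading was chosen because the arrays fall into these pairs, so its p-values do not cover that choice. Its overall sign is likely agamous over wild type, since the 8 measured marker genes of anther and tapetum (SPL, EMS1, ATA20), pollen (TUA1, SWEET8), carpel and ovule (INO, CES) and nectary (SWEET9) had mean log2 ratios from -4.99 to -0.22 in it, and 6 of them passed the test as lower. These markers move opposite to TRM22 below, and their part in that result was not tested. Higher and lower below mean higher and lower in agamous under that sign, and would swap under the other one. No level of AGAMOUS itself is given, because no probe lists that gene alone.

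TRM22 (AT1G67040) was the only one of the 7 genes to pass the test with arrays 2 and 3 turned, and it was likely higher in agamous. Its deposited log2 ratios on arrays 1 to 4 were 1.38, -1.15, -0.65 and 0.83. Turned, the 4 values lie between 0.65 and 1.38, all above 0, and arrays 1 and 2 are higher than arrays 3 and 4. The mean log2 ratio was 1.0 ± 0.32 (SD, n = 4), a 2.01-fold difference with a 95% interval of 1.51-fold to 2.66-fold (adjusted p = 0.0215, limma with Benjamini-Hochberg adjustment over 26100 features). Its turned ratio ranked high on each array, at the 94.1, 96.1, 90.6 and 90.9 percentile of arrays 1 to 4. The call ended without array 1 (adjusted p = 0.0647), array 2 (0.114) or array 4 (0.0643) and remained without array 3 (0.0469). It also ended without moderation of the spread (0.0719) and with arrays 1 and 2 and arrays 3 and 4 averaged (0.142).

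TRM23 (AT4G25430) came next and missed the threshold. It had deposited log2 ratios of 1.09, -1.31, -0.45 and 0.38 on arrays 1 to 4. Its turned values are all above 0 but fall into a high pair, arrays 1 and 2, and a low pair, arrays 3 and 4. The mean log2 ratio was 0.81 ± 0.46 (SD, n = 4), a 1.75-fold difference with a 95% interval of 1.21-fold to 2.54-fold (adjusted p = 0.0607, limma). It passed with values at the bounds treated as missing (adjusted p = 0.0317) and with robust moderation (0.0463). It also passed with pairs of arrays as a random block (0.0442, at a consensus correlation of -0.24), but not with the same pairs averaged (0.202). The random block is a lenient setting, since a negative correlation narrows the standard error, and 6909 features passed with it against 4539 without. TRM23 itself had like values within these pairs. Quantile normalization gave it a larger mean log2 ratio of 1.44 (adjusted p = 0.199). TRM23 also did not pass with each array centred on its median (0.0977), without moderation (0.141) or with any 1 array left out (0.0892 to 0.184). Nor did it pass with a dye term that set arrays 1 and 4 against arrays 2 and 3 (0.0946).

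**Figure D1:**
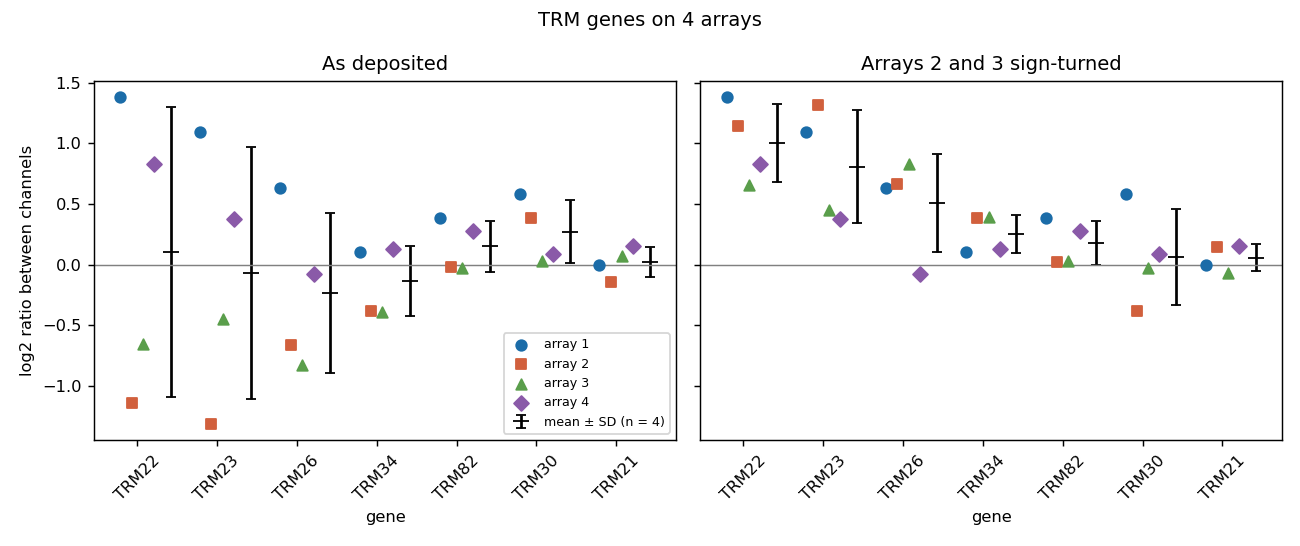
Log2 ratios between the channels (y axis) of the 7 TRM genes (x axis) on 4 arrays, as deposited (left) and with arrays 2 and 3 sign-turned (right). Symbols mark arrays, and black bars give the mean ± SD (n = 4). TRM22 and TRM23 lie on both sides of 0 as deposited and above 0 on all 4 arrays once turned, whereas TRM30 is above 0 on all 4 arrays as deposited.

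TRM26 (AT2G17550) had turned values on 3 arrays that resembled each other and 1 that did not. The deposited ratios were 0.63, -0.66 and -0.83 on arrays 1, 2 and 3, and -0.08 on array 4. Turned, the first 3 arrays are above 0, at the 79.5, 84.7 and 95.2 percentile of all features, while array 4 is just below 0, at the 33.0 percentile. The mean log2 ratio was 0.51 ± 0.40 (SD, n = 4), with a 95% interval from 0.03 to 0.99 (adjusted p = 0.121, limma). Without array 4 the mean was 0.71 (adjusted p = 0.0607). Without array 1, 2 or 3 it was 0.47, 0.46 and 0.40 (adjusted p = 0.263, 0.314 and 0.276, limma). After each array was centred on its median the mean was 0.37 (adjusted p = 0.245).

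TRM34 (AT3G24630) had smaller ratios that kept 1 sign when turned. Its deposited log2 ratios were 0.10, -0.38, -0.39 and 0.13 on arrays 1 to 4, so that arrays 2 and 3 gave the larger sizes. The mean log2 ratio was 0.25 ± 0.16 (SD, n = 4), a 1.19-fold difference with a 95% interval of 0.979-fold to 1.45-fold (adjusted p = 0.170, limma). After each array was centred on its median the mean was 0.12 (adjusted p = 0.522).

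TRM21 (AT5G43880) and TRM30 (AT5G42710) had turned ratios on both sides of 0. TRM21 had deposited ratios of -0.01, -0.14, 0.07 and 0.16, the narrowest range of the family on these arrays. Its mean log2 ratio was 0.06 ± 0.11 (SD, n = 4, adjusted p = 0.709, limma), and its 95% interval from -0.20 to 0.31 is a 0.869-fold to 1.24-fold difference. TRM30 had deposited ratios of 0.58, 0.39, 0.03 and 0.09, all above 0 before turning. Turned, arrays 1 and 4 stay above 0 and arrays 2 and 3 fall below, and the mean log2 ratio was 0.06 ± 0.40 (SD, n = 4, adjusted p = 0.831, limma). With each array centred on its median both means were below 0, at -0.08 for TRM21 and -0.07 for TRM30.

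TRM82, the tRNA modification gene, did not pass either. The means of its 2 probes were 0.38, -0.02, -0.03 and 0.27 on arrays 1 to 4 as deposited. Turned, the mean log2 ratio was 0.18 ± 0.18 (SD, n = 4, adjusted p = 0.315, limma), close to the median of all features, 0.15. Probe A019990_01 averaged 0.11 ± 0.21 and probe A021554_01 0.25 ± 0.15 (SD, n = 4 each). Within arrays A021554_01 exceeded A019990_01 by 0.14 ± 0.05 (SD) and on all 4 arrays, with a p of 0.125 in an exact two-sided sign-flip test, the smallest that 4 arrays allow.

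With arrays 2 and 3 turned, 1 of the 7 genes thus passed as higher and 0 as lower, where 17.4% of all features passed, 8.23% as higher and 9.16% as lower. With each array centred on its median, 880 of 3551 called features were higher (24.8%), against 2147 of 4539 (47.3%) without centring. A single call among 7 genes is not set apart from that background. At an unadjusted p under 0.05 there were 3 of the 7 (TRM22, TRM23 and TRM26), beside 36.6% of all features. The 7 means had a median of 0.25 and the 6 of the family 0.38, beside 0.15 for all features and 0.18 for all loci. All 7 means were above 0, and so was the median of all features. Of the 7 means 2, those of TRM21 and TRM30, were below that median, and below 0 once each array was centred. Values above 0 on all 4 arrays were found for 4 genes (TRM22, TRM23, TRM34 and TRM82), a pattern that 31.0% of features with 4 values had.

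**Figure D2:**
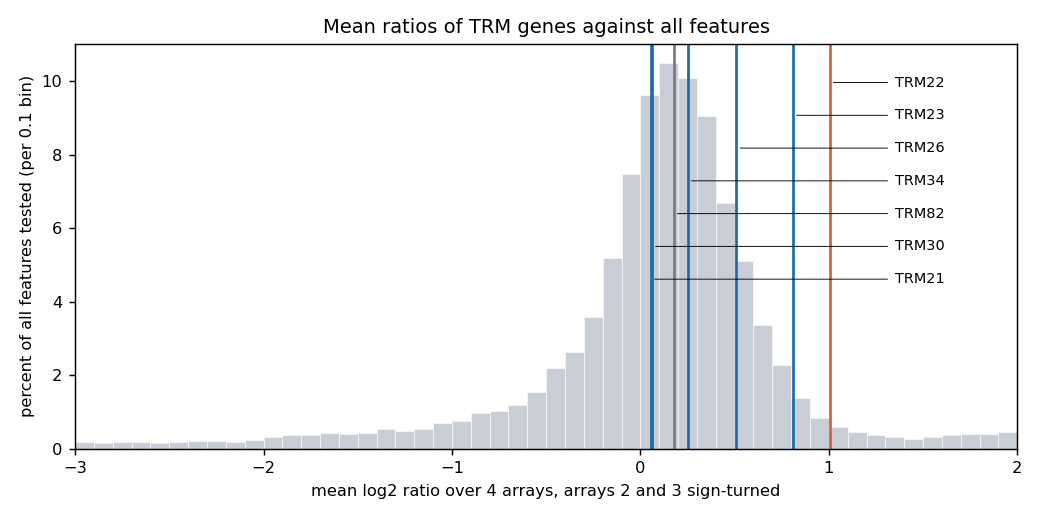
Share of all features tested (y axis, percent per bin of 0.1) by mean log2 ratio over 4 arrays with arrays 2 and 3 sign-turned (x axis, shown from -3 to 2). Vertical lines mark the TRM genes: orange for TRM22, which passed the test, blue for the other TON1 family genes and grey for TRM82. TRM22 at 1.0 and TRM23 at 0.81 lie to the right of the bulk of features, whose median was 0.15, and the other lines lie within it.

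The order of the 7 means was TRM22, TRM23, TRM26, TRM34, TRM82, TRM30 and TRM21. Neighbours in this order differed on average by less than the SD of their differences within arrays. TRM22 exceeded TRM23 by 0.19 ± 0.26 on the log2 scale and on 3 of 4 arrays, and TRM23 exceeded TRM26 by 0.30 ± 0.46 (SD, n = 4 each). Exact two-sided sign-flip tests of the 6 neighbouring pairs gave p from 0.25 to 1.0 before adjustment. With 4 arrays none can go below 0.125, so these tests cannot settle the order. The members' spread also differed by array, from a turned ratio of -0.39 to 1.31 on array 2 against -0.08 to 0.83 on array 4. The median of the 7 was 0.58, 0.38, 0.39 and 0.16 on arrays 1 to 4, beside 0.16, 0.14, 0.11 and 0.13 for all features.

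As deposited, no TRM gene passed limma's test (0 of 7, and 0 at an unadjusted p under 0.05), where 0.226% of all features passed, all of them higher, and 2.29% had an unadjusted p under 0.05. The mean deposited log2 ratios ran from -0.23 for TRM26 to 0.27 for TRM30, with a median of 0.02, the same as for all features to 2 decimals. TRM22 averaged 0.10 ± 1.20 and TRM23 -0.07 ± 1.04 (SD, n = 4 each), because arrays 1 and 4 and arrays 2 and 3 had opposite signs. TRM30 was the only one of the 7 with the same sign on all 4 arrays in this reading, and averaged 0.27 ± 0.26 (SD, n = 4, adjusted p = 1.0, limma). As deposited, 4.89% of features had ratios above 0 on all 4 arrays and 3.78% had ratios below 0 on all 4.

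Turned by the labels, again 0 of 7 passed limma's test, with 0 at an unadjusted p under 0.05, and 0% of features passed, with 191 at an unadjusted p under 0.05. TRM23 had the largest mean log2 ratio of the 7, 0.39 ± 0.94, and TRM22 had 0.26 ± 1.17 (SD, n = 4 each). The other means lay between -0.01 for TRM34 and 0.14 for TRM26. None of the 7 genes kept 1 sign on all 4 arrays in this reading.

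Many family members share probes, and these give values of the family that cannot be assigned to a gene. Of 34 genes listed as TON1 Recruiting Motif under any symbol, 29 carry a TRM symbol, and only these were searched for a probe of their own. Such a probe was found for 6 genes, and 8 others were on probes that list several genes. The remaining 20 were found on neither kind, though those without a TRM symbol may have a probe of their own. In 6 such probes every listed gene belonged to the family. With arrays 2 and 3 turned, 2 of these 6 probes passed as likely higher, beside 8.23% of all features, and the median of their mean log2 ratios was 0.54.

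Probe A018739_01, which lists TRM23 and 2 other family genes, had turned log2 ratios of 0.43, 0.95, 0.91 and 0.82 on arrays 1 to 4. All lie above 0, and array 1 is the lowest here, whereas it is among the higher ones for the probe of TRM23 alone. Its mean was 0.78 ± 0.24 (SD, n = 4, adjusted p = 0.0254, limma). It lost that call when array 2 (0.121), array 3 (0.0851) or array 4 (0.0839) was left out, under quantile normalization (0.0685), without moderation (0.0678) and with pairs averaged (0.122). Probe A018978_01, which lists 2 of the same 3 genes but not TRM23, ran the other way on every array. Its turned ratios were -0.24, -0.36, -0.54 and -0.23, with a mean of -0.34 ± 0.15 (SD, n = 4, adjusted p = 0.0905, limma).

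Probe A016606_01, which lists 2 other family genes, passed with turned ratios of 1.16, 0.95, 0.27 and 0.77 and a mean of 0.79 ± 0.38 (SD, n = 4, adjusted p = 0.0464, limma). The call ended without array 1 (0.123), array 2 (0.175) or array 4 (0.120). It also ended after centring (0.0738), with the dye term given for TRM23 (0.0651) and without moderation (0.114). With pairs averaged (0.166) and with empty features tested too (0.0509) it ended as well. Probe A006511_01 lists the same 2 genes and had -0.20, 0.96, 1.08 and 0.36, with a mean of 0.55 ± 0.59 (SD, n = 4, adjusted p = 0.192, limma). The probes thus disagree on arrays 1 and 3, where one is high and the other low. The remaining 2 probes, A011724_01 and A022539_01, averaged 0.53 ± 0.26 and 0.19 ± 0.24 (SD, n = 4 each) and did not pass (adjusted p = 0.0621 and 0.346, limma).

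**Figure D3:**
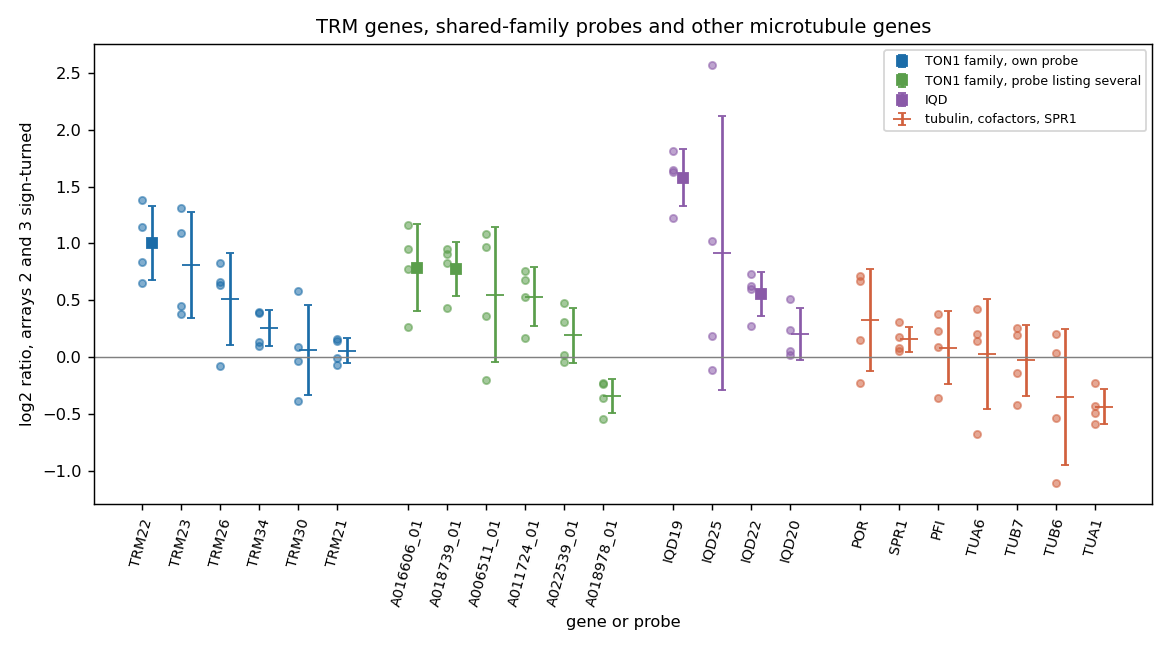
Log2 ratios with arrays 2 and 3 sign-turned (y axis) for the 6 TON1 family genes of TRM symbol with a probe of their own, the 6 probes that list only family genes, 4 IQD genes, and the measured tubulin, tubulin cofactor and SPR1 genes (x axis). Dots are the 4 arrays, bars give the mean ± SD, and squares mark means that passed limma's test. Passing means are TRM22, A016606_01, A018739_01, IQD19 and IQD22, and A018978_01 is the only family probe with all arrays below 0.

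Other microtubule genes were measured sparsely. Of 220 genes on 7 lists for microtubules, cell division and partners of the family, 11 were measured singly. None of these was a TON1, FASS or phosphatase 2A subunit, a kinesin, an OVATE family protein or a mitotic cyclin. With arrays 2 and 3 turned, 2 of the 11 passed as likely higher and 0 as lower, beside 8.23% and 9.16% of all features. The median of the 11 mean log2 ratios was 0.16, beside 0.15 for all features. In both other readings 0 of the 11 passed limma's test.

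Both passing genes were IQD genes, whose calmodulin-binding proteins act as scaffolds at cortical microtubules. IQD19 (AT4G14750) had deposited ratios of 1.81, -1.63, -1.22 and 1.65 on arrays 1 to 4, and a turned mean of 1.58 ± 0.25 (SD, n = 4, adjusted p = 0.00432, limma). IQD22 (AT4G23060) had 0.60, -0.63, -0.28 and 0.73, and a turned mean of 0.56 ± 0.20 (SD, n = 4, adjusted p = 0.0416, limma). Turned, both were above 0 on all 4 arrays, as TRM22 was, a pattern that 31.0% of features with 4 values had. For these 2 genes it follows largely from their calls as higher. The call of IQD19 remained without each array in turn (adjusted p up to 0.0404) but ended under quantile normalization (0.0540, with a mean of 2.72) and with pairs of arrays averaged (0.0656), whereas that of IQD22 ended without any 1 array (0.0626 to 0.161), after centring (0.0811), with a dye term (0.0584), without moderation (0.0786) and with pairs averaged (0.149). IQD25, with 2.57 on array 1, averaged 0.92 ± 1.20, and IQD20 averaged 0.20 ± 0.23 (SD, n = 4 each), and neither passed (adjusted p = 0.243 and 0.301, limma). The 4 IQD means had a median of 0.74, beside 0.38 for the 6 TON1 family genes. Without array 1 the medians were 0.45 and 0.39, and without array 2 they were 0.71 and 0.34. They were 0.95 and 0.30 without array 3, and 0.83 and 0.50 without array 4. The difference between the families was not tested.

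The tubulin genes, which encode the subunits of the microtubule itself, did not pass. The alpha-tubulins TUA1 and TUA6 averaged -0.44 ± 0.15 and 0.02 ± 0.48, and the beta-tubulins TUB6 and TUB7 -0.35 ± 0.60 and -0.03 ± 0.31 (SD, n = 4 each). Without array 1 the mean of TUB6 was -0.097. TUA1, a pollen-expressed gene, was below 0 on all 4 turned arrays (adjusted p = 0.0562, limma). It passed after centring (0.0352) and with the lenient random block (0.0291), but not with pairs averaged (0.172). TUA1 is also among the markers used above for the likely overall sign, so its lower direction is not a separate result. The tubulin folding cofactor genes PFI and POR averaged 0.08 ± 0.32 and 0.33 ± 0.45, and SPR1, a small protein at the growing ends of microtubules, 0.16 ± 0.11 (SD, n = 4 each). Multigene families such as the tubulins can share signal between relatives even on probes listed for 1 gene.

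The named genes whose turned ratios were most like those of TRM22, by Euclidean distance over the 4 arrays and among 531 genes with a symbol of their own, were UGT73C1, Haspin and UGT74B1. UGT73C1, a glycosyltransferase, lay at a distance of 0.37 and averaged 1.17 ± 0.27 (SD, n = 4, adjusted p = 0.0110, limma). Haspin, a kinase that phosphorylates histone H3 in mitosis, lay at 0.46 and averaged 1.10 ± 0.29 (SD, n = 4, adjusted p = 0.0138, limma). UGT74B1, the glucosyltransferase of the glucosinolate core pathway, lay at 0.46 too and averaged 0.78 ± 0.33 (SD, n = 4, adjusted p = 0.0378, limma). All 3 had arrays 1 and 2 as the highest turned ratios, as TRM22 did. They were chosen by these same values, so this likeness, their means and their calls follow largely from the choice. The calls ended without array 2 for UGT73C1 (0.0735), without array 1, 2 or 3 for Haspin (0.0545 to 0.0871) and without any 1 array for UGT74B1 (0.0798 to 0.151). With pairs averaged they ended for UGT73C1 (0.118), Haspin (0.117) and UGT74B1 (0.161). Quantile normalization ended those of UGT73C1 (0.0751) and Haspin (0.0872), no moderation those of Haspin (0.0556) and UGT74B1 (0.0962), and centring (0.0585) and a dye term (0.0611) that of UGT74B1.

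**Figure D4:**
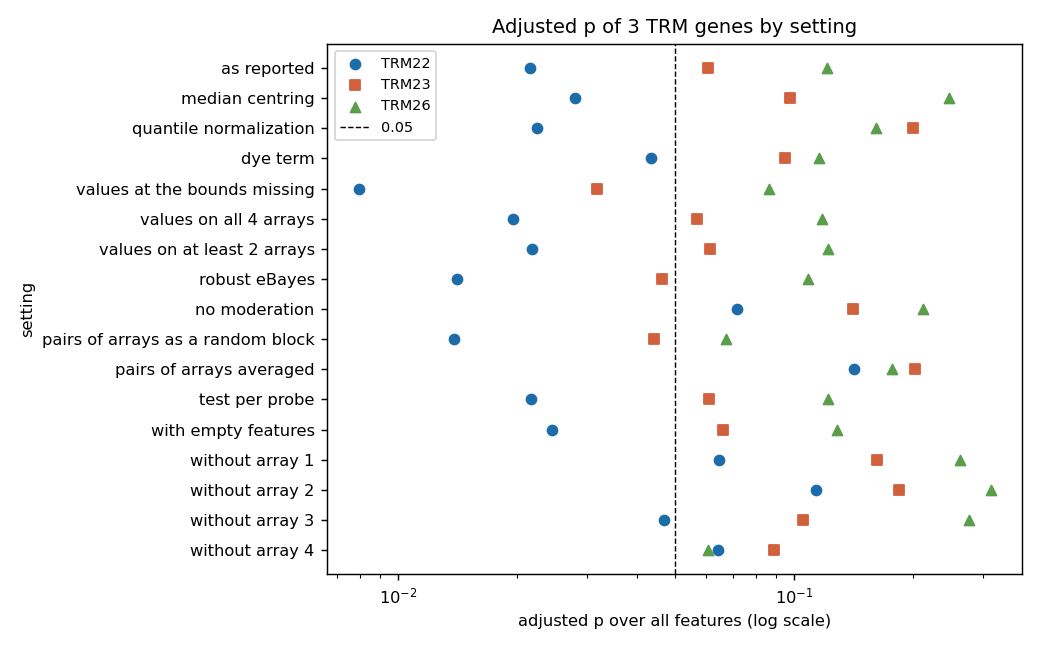
Adjusted p over all features (x axis, log scale) of TRM22, TRM23 and TRM26 with arrays 2 and 3 sign-turned, under each processing setting (y axis), with the threshold of 0.05 as a dashed line. TRM22 lies left of the line in the result as reported (0.0215) and right of it without array 1, 2 or 4, without moderation and with pairs of arrays averaged, while TRM26 lies right of it in each setting.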

How the data were processed

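The deposited table held 1 log2 ratio per feature and array, normalized by the authors before deposit as in a cited publication, per the labels, whose steps are not given in the sources used here. That the scale is log2 follows from signed values that end at plus and minus 6.64, the log2 of 100. Numerator and centring stay unknown beyond the array medians (0.16, -0.14, -0.11 and 0.13). Of 26474 probes analysed (424 empty and 35 control features left out), 5784 listed 1 gene, 7497 several and 13193 none in the platform annotation. Of the first, 5756 matched a locus in RefSeq's TAIR10.1 table, which gave symbols and names. No build is named for the probes, so no coordinates are given.

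Probes of a gene were averaged. Limma 3.58.1 in R 4.3.3 (lmFit, eBayes) tested the 26100 features that had a value on 3 or more arrays against 0, two-sided, with Benjamini-Hochberg adjustment at 0.05, after a check on simulated data. All 7 genes were named, with list members and 3 genes nearest TRM22. Members and lists were chosen with earlier results of these data known. Alternatives covered normalization, a dye term, missing values, the spread, leaving out each array, and joining arrays 1 and 2 and arrays 3 and 4 (as a block or by averaging). With arrays 2 and 3 turned, the dye term set arrays 1 and 4 against arrays 2 and 3, which is not the labelled channel order. In the other readings it followed the labelled order. The 4 arrays limit precision.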

Additional observations from a re-analysis of the deposited data

How the results depend on the processing

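The number of TRM genes past the test with arrays 2 and 3 turned was 1, and it was 2 with values at the bounds missing, robust moderation or pairs of arrays as a random block, 0 without moderation or with pairs averaged, and 0 to 1 without each array in turn. The count stayed at 1 without TRM82 and with empty features tested too, alternatives chosen after seeing the data. Among the 11 list genes the count of 2 became 1 under quantile normalization, a dye term and no moderation, 0 with pairs averaged, and 1 without each array in turn. After centring it was again 2, with TUA1, itself a marker for the sign, as lower in place of IQD22. Of all features 4539 passed in this reading, against 1869 without moderation, 6909 with a random block, 809 with pairs averaged and 1050 to 1899 without each array. As deposited 59 passed, against 17 with a dye term, 0 with values at the bounds missing, 20 with values required on all 4 arrays and 18 to 224 without each array. Turned by the labels 0 passed, against 1 without moderation and 0 to 44 without each array. Centring moved the median of all features by -0.14 and turned the signs of TRM21 (-0.080), TRM30 (-0.075), PFI (-0.052) and TUA6 (-0.11). In the reading by the labels TRM21 changed sign after centring, to -0.0020, and TRM26 under quantile normalization, to -0.032. Without each array in turn, signs changed for TRM30 (-0.11 to 0.21), PFI (-0.015 to 0.23), TUB7 (-0.12 to 0.10) and TUA6 (-0.11 to 0.26) with arrays 2 and 3 turned, for TRM22 (-0.32 to 0.52), TRM23 (-0.46 to 0.34) and TRM21 (-0.026 to 0.074) as deposited, and by the labels for TRM22 (-0.11 to 0.62), TRM26 (-0.039 to 0.46), TRM34 (-0.14 to 0.12), TRM82 (-0.094 to 0.13), TRM21 (-0.031 to 0.069) and TRM30 (-0.15 to 0.17). Centring takes the same amount from every gene with 4 values, and leaving out an array leaves fewer values. The cause of the other shifts was not tested. Averaged pairs leave 2 values per feature. Each ratio already pairs agamous with wild-type RNA within its array. All arrays form 1 group, so no further pairing between groups was possible, and the pairs above are a block of arrays. Signal over background was not used here, so the precision of dim probes is unknown.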

Other observations

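With arrays 2 and 3 turned, 18 of 415 empty features (4.34%) passed when tested together with the probes, beside 4230 of the 26100 other features (16.2%) in the same fit. One further probe, A007698_01, lists a TON1 family gene together with a gene of no TRM symbol. It had turned ratios of -0.05, 1.16, 0.78 and 1.43 on arrays 1 to 4, with a mean of 0.83 ± 0.64 (SD, n = 4, adjusted p = 0.102, limma), so that array 1 stood apart from the other arrays. Of the 14 protein-coding genes that flank the 7 TRM genes in the reference table, 1 was measured singly. It is AT5G42720, next to TRM30, and averaged 0.31 ± 0.26 (SD, n = 4, adjusted p = 0.182, limma).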
